A study of Mus musculus with 8 samples.

Results

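Granzymes are serine proteases that cytotoxic T lymphocytes and natural killer (NK) cells store in granules, release together with perforin and use to cleave proteins inside target cells. Gzmn, granzyme N, is the exception in the mouse, since it is transcribed in the germ cells of the testis, in spermatocytes and spermatids. In the mouse the genes from Gzmb to Gzmg and Gzmn lie side by side on chromosome 14, next to the chymase genes of mast cells and cathepsin G, whereas Gzma and Gzmk lie on chromosome 13 and Gzmm on chromosome 10.

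The family was examined in whole testes of mice lacking ING2, a subunit of the Sin3-HDAC complex that binds trimethylated lysine 4 of histone H3. Every probe set whose gene symbol was that of Gzma, Gzmb, Gzmc, Gzmd, Gzme, Gzmf, Gzmg, Gzmk, Gzmm or Gzmn was taken from the expression table. All 10 genes had a probe set of their own with 1 symbol, and 0 shared a probe set with another gene, so the family was 10 of 35557 probe sets and 10 of 19938 genes. Testes came from 3 Ing2+/+ and 5 Ing2-/- mice of 2 to 3 months, with 1 Mouse Gene 1.0 ST array per mouse and no pooling. The Ing2-/- mice carried a germline allele without the second exon of Ing2, made by gene targeting in embryonic stem cells of a strain other than C57BL/6J. The allele was recombined with EIIa-Cre, and carriers were bred with C57BL/6J to segregate the Cre transgene and then mated with each other. The Ing2+/+ mice were wild type, and the methods of the arrays do not say whether they were littermates. In the Ing2-/- mice the deletion was present in all cells. Germ cells, somatic cells of the testis and blood cells thus all lacked the second exon of Ing2.

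The deposited values are log2 levels after robust multi-array averaging (RMA), and differences are Ing2-/- minus Ing2+/+ on that scale. A gene counts as called where limma's p, after Benjamini-Hochberg adjustment for the whole array, was under 0.05. Array medians were 6.41 to 6.45 in Ing2+/+ and 6.46 to 6.53 in Ing2-/- testes, and the median difference of all probe sets was 0.03. Ing2 itself was at 7.43, 7.60 and 7.34 in Ing2+/+ and at 5.06, 5.64, 5.21, 5.29 and 5.25 in Ing2-/- testes, so every array fitted its label. Replicate 3 of the Ing2-/- group stood apart, with a mean correlation over probe sets of 0.983 with the other Ing2-/- arrays, which had at least 0.993 among themselves. Its values are therefore given separately where they matter.

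The promoters of Gzmn and of the genes on either side of it show how the testis member differs in sequence from its neighbours. The 250 bases before the transcription start are printed in the sense direction from RefSeq on GRCm38.p6, for Gzmg (chr14:56159580-56159829, minus strand), Gzmn (chr14:56174600-56174849, minus strand) and Gzmf (chr14:56211408-56211657, minus strand). Capitals mark a run of 36 bases that Gzmd, Gzme, Gzmf and Gzmg share letter for letter.
Gzmg: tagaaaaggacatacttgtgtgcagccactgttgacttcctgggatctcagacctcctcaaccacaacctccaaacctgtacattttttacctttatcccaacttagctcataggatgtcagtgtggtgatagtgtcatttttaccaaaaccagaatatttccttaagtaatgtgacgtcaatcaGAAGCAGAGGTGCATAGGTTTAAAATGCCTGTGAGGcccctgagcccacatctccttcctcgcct
Gzmn: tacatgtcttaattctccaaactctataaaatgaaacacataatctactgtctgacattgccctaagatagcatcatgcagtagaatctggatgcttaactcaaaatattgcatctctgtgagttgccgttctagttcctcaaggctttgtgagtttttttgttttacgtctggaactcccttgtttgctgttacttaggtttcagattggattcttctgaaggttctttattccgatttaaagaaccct
Gzmf: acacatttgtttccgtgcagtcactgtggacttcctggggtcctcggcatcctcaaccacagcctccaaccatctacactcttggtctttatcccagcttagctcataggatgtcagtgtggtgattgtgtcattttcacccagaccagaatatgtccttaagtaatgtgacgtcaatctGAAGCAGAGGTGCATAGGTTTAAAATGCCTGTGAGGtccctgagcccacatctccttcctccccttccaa

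The run in capitals lay 65 to 30 bases before the start of Gzmg and 70 to 35 bases before that of Gzmf. On either strand it occurred in 4 of 32851 RefSeq promoters of 300 bases (250 before and 50 after the start), or 0.0122%, and those were the promoters of Gzmd, Gzme, Gzmf and Gzmg. Its first 20 bases, GAAGCAGAGGTGCATAGGTT, were also in the promoter of Gzmc, which made 5 promoters, or 0.0152%. Neither run was in the windows of Gzmn or Gzmb. Over the 300 bases, the 10 pairs among Gzmc, Gzmd, Gzme, Gzmf and Gzmg were 73.5% to 93.4% identical in global alignments. Gzmn was 47.2% to 50% identical to the other members on chromosome 14, which is in the range of the 21 pairs of a promoter on chromosome 14 with one of Gzma, Gzmk or Gzmm (43.8% to 50%, median 46.1%). Gzmb likewise had 43.5% to 48.6% identity to the other members of the cluster. Its GC content set Gzmn apart as well, at 38.7% against 46.3% to 51.3% in the other genes of the cluster.

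A few short motifs were searched on both strands after the sequences had been read. The cAMP response element TGACGTCA was in the promoters of Gzmc, Gzmf and Gzmg and in 1.79% of all promoters. The letters TATAAA, as in a TATA box, were found among the members only in Gzmn, and in 13.6% of all promoters. They lay at base 25 of the 250 printed bases, near the end farthest from the transcription start. The run TTTAAA, which also lies inside the shared stretch, was at base 238 of Gzmn and in the windows of Gzmd, Gzme, Gzmf and Gzmg, and in 13.2% of all promoters. These matches describe letters and not bound sites.

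Gzmn was the granzyme that differed between the genotypes. Its level was 8.31, 8.40 and 8.45 in the Ing2+/+ testes and 7.49, 7.55, 6.44, 7.17 and 7.15 in the Ing2-/- testes. The groups did not overlap, and the lowest Ing2+/+ value was 0.76 above the highest Ing2-/- value. The means were 8.39 ± 0.07 (SD, n = 3) and 7.16 ± 0.44 (SD, n = 5), a difference of -1.23 (SE 0.224, 95% interval -1.73 to -0.72) or 2.34-fold lower in Ing2-/- testes. Limma gave an adjusted p of 0.0256, and the exact two-sided permutation test gave 0.0179, the smallest p that the 56 assignments of 3 of 8 arrays allow. Of all genes ranked from the largest decrease, Gzmn was at place 32. The study had listed Gzmn among its changed genes from these same arrays, so this call is not independent evidence of its direction. Apart from the arrays, the study also reported lower Gzmn in Ing2-/- testes by quantitative RT-PCR.

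The spread of Gzmn was unequal between the groups, with a range of 0.14 over the Ing2+/+ and 1.11 over the Ing2-/- testes. Replicate 3 of the Ing2-/- group had the lowest level, with a difference of -1.95 from the Ing2+/+ mean, against -1.05 for the mean of the other Ing2-/- arrays. Without that array the difference was -1.05 with an adjusted p of 0.00303. The call was lost without Ing2+/+ replicate 1 (-1.26, adjusted p = 0.103 by limma), replicate 2 (-1.22, 0.110) or replicate 3 (-1.19, 0.0944), and without Ing2-/- replicate 5 (-1.22, 0.0674). The size of the difference thus moved little when 1 array was left out, from -1.32 to -1.05.

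**Figure D1:**
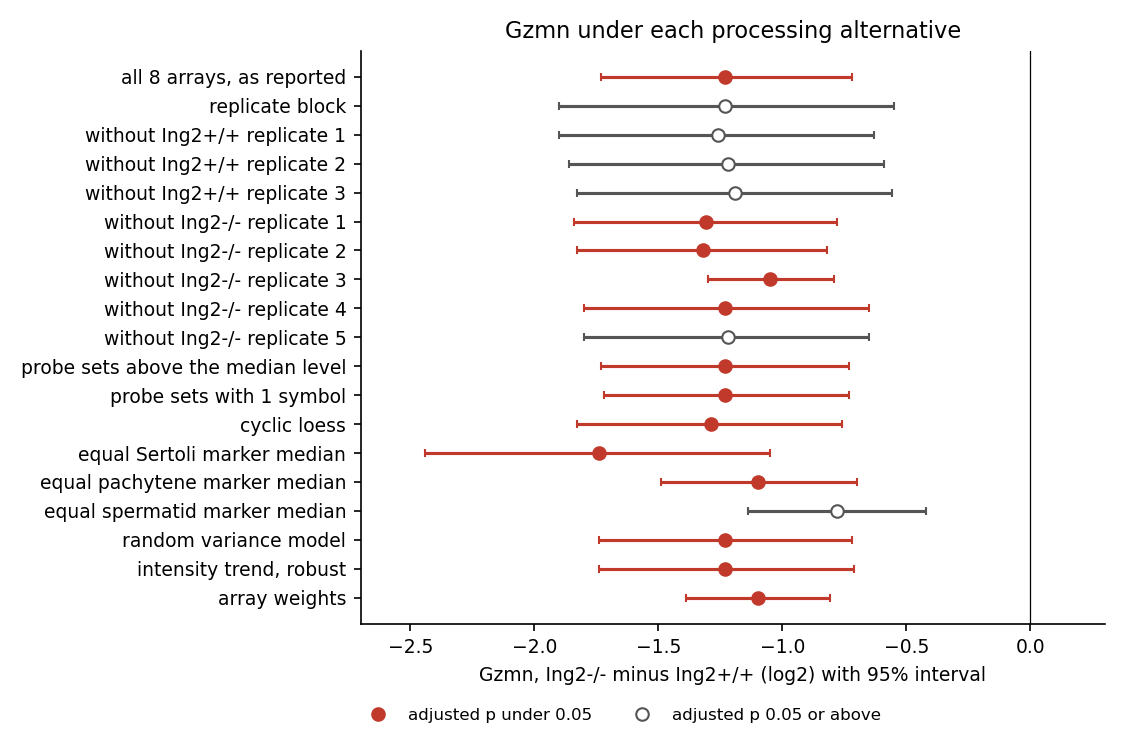
Gzmn difference (horizontal axis, Ing2-/- minus Ing2+/+, log2, with its 95% interval) under each processing alternative (rows), with filled red points for an adjusted p under 0.05 and open grey points otherwise. All 18 alternatives lie below 0, from -1.74 to -0.78, and 12 of them are called.

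The other 9 granzymes did not pass the test. Of the family 1 probe set was called, lower in Ing2-/- testes, against 4.82% of all probe sets called in either direction and 3.03% called lower. The remaining 9 had differences of -0.13 to 0.11 with a median of -0.00043, adjusted p of 0.201 to 0.998, and 95% intervals that together ran from -0.28 to 0.31. Groups did not overlap for Gzmn and Gzmd, 2 of 10 members, and for 26.6% of all probe sets.

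Most of these genes were also at a level where a change would be hard to see. Unnamed probe sets, those that carry no gene symbol, served as a mark of the low end of the scale, and their median was 5.47 to 5.51 on the Ing2+/+ and 5.54 to 5.62 on the Ing2-/- arrays. Gzmn lay above it on all 8 arrays, at percentiles 87.8 to 88.9 of the unnamed probe sets in Ing2+/+ and 65.1 to 81.2 in Ing2-/- testes. The members below it on all arrays were 8, namely Gzma, Gzmb, Gzmc, Gzmd, Gzme, Gzmf, Gzmg and Gzmk. For those the intervals bound only a change in the signal, and a change of transcripts too rare to lift the signal would not be detectable.

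Gzmb cleaves after aspartate, and Gzma and Gzmk have tryptase activity. Gzmb was at 4.62, 4.70 and 4.46 in Ing2+/+ and at 4.57, 4.87, 4.75, 4.69 and 4.58 in Ing2-/- testes, with overlapping groups and a difference of 0.10 (interval -0.11 to 0.30). Gzma was at 4.40, 4.46 and 4.16 in Ing2+/+ and at 4.45, 4.50, 4.33, 4.58 and 4.41 in Ing2-/- testes, a difference of 0.11 (interval -0.09 to 0.31). Gzmk, the neighbour of Gzma on chromosome 13, lay between 4.79 and 4.99 in the Ing2+/+ group and between 4.73 and 4.99 in the Ing2-/- group (interval -0.20 to 0.20). In none of these genes could the genotypes be told apart at this number of arrays.

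Gzmm, a granzyme of NK cells that cleaves after methionine and leucine, was at 5.78, 5.62 and 5.63 in Ing2+/+ and at 5.67, 5.68, 5.52, 5.71 and 5.74 in Ing2-/- testes. It was above the unnamed median on 7 of 8 arrays, all but Ing2-/- replicate 3, and its difference was -0.02 (interval -0.18 to 0.15, adjusted p = 0.910 by limma). The genotypes overlapped.

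Gzmc, Gzmd, Gzme, Gzmf and Gzmg, rodent genes with closely related promoters, are transcribed in activated killer cells, and several of them in decidual NK cells. Gzmd was lower in all Ing2-/- testes, with 3.93, 3.81 and 3.77 in Ing2+/+ against 3.71, 3.75, 3.73, 3.68 and 3.65 in Ing2-/- testes. Its groups were apart by only 0.02, the difference was -0.13 (SE 0.0628, interval -0.28 to 0.01), the exact permutation p was 0.0179, and limma's adjusted p was 0.201. All of its values were below the unnamed median. Whether the probes tell these closely related genes apart was not tested, so the values of these members may hold signal from one another. Gzme lay between 5.23 and 5.40 in the Ing2+/+ group and between 5.06 and 5.43 in the Ing2-/- group, a difference of -0.04. The differences of Gzmc, Gzmf and Gzmg were 0.01, 0.06 and -0.01, and their genotypes overlapped.

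**Figure D2:**
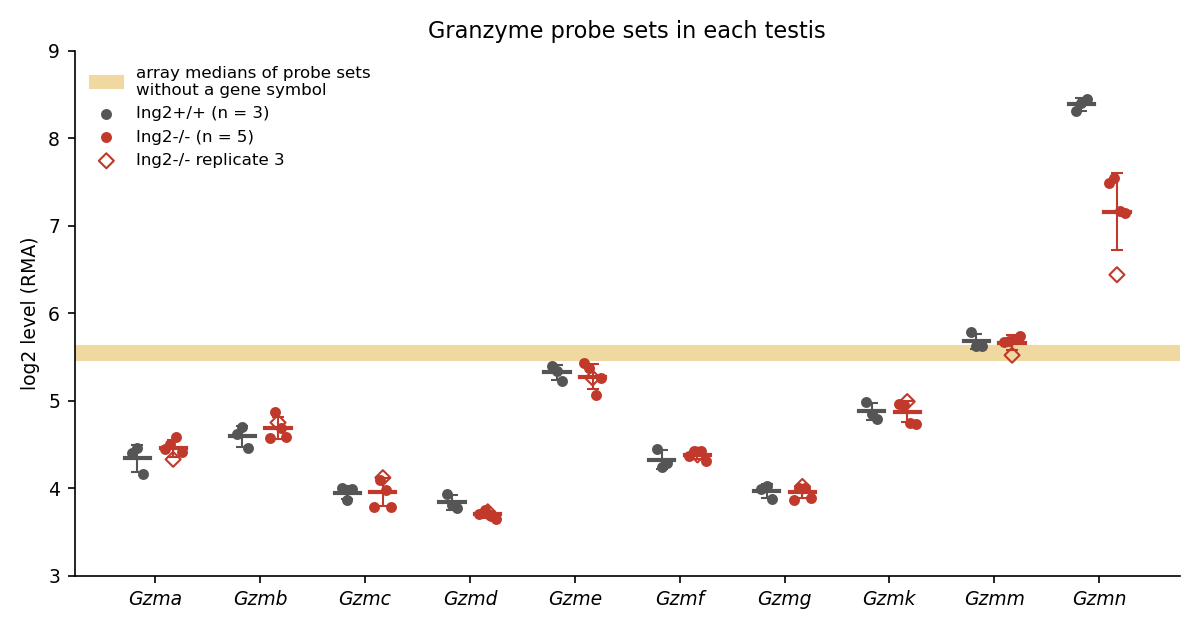
Levels of the 10 granzyme probe sets (vertical axis, log2 after RMA) in each Ing2+/+ (grey, n = 3) and Ing2-/- testis (red, n = 5, replicate 3 as an open diamond), with bars for the mean and SD and a shaded band from 5.47 to 5.62 for the array medians of probe sets without a gene symbol. The genotypes stand clearly apart for Gzmn, and 8 members lie below the band.

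The genes around Gzmn were read in chromosomal order to see whether its neighbours moved with it. From Cma1 to Gzmb the annotation holds 15 protein-coding genes, and with 5 more on each side the window had 25, of which 21 had a probe set of their own. This window was chosen after the values had been seen. Gzmn was the 1 gene called in it, against 3.01% of all genes called lower and 1.97% called higher. Its direct neighbours Gzmg and Gzmf had differences of -0.01 and 0.06, but both were below the unnamed median on every array. The other granzymes, the chymase genes and cathepsin G in the window were not above it on any array either. At that level a decrease would be hard to see, so whether these genes moved with Gzmn cannot be read from them.

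Of the mast cell chymase locus (8 genes listed, 6 measured), 0 were called and 1 was lower at an unadjusted p under 0.05 by limma, where 13.5% of all genes were. That was Mcpt2, a mast cell protease of the gut, at 3.80, 3.87 and 3.86 in Ing2+/+ and at 3.53, 3.78, 3.54, 3.76 and 3.57 in Ing2-/- testes, a difference of -0.21 with an adjusted p of 0.142. Its groups did not overlap, and it was below the unnamed median on every array. Mcpt8, a protease of basophils, had a difference of 0.06.

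Of the flanking genes 8 were measured, 7 of them above the unnamed median on all arrays, and 0 were called. Rnf17, which encodes a tudor domain protein of male germ cells, was at 9.85 in Ing2+/+ and 9.70 in Ing2-/- testes on average. Sdr39u1 had the lowest difference among them, -0.24 (interval -0.50 to 0.02), and Nynrin the highest, 0.20. The interval of Gzmn, -1.73 to -0.72, lay below that of every other gene measured in the window. Apart from the 7 flanking genes, those genes were not above the unnamed median on any array, where a decrease would be hard to see. Of the 7, Nfatc4, Nynrin and Cbln3 were close to that median, with Ing2+/+ means of 5.69, 5.70 and 5.81.

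**Figure D3:**
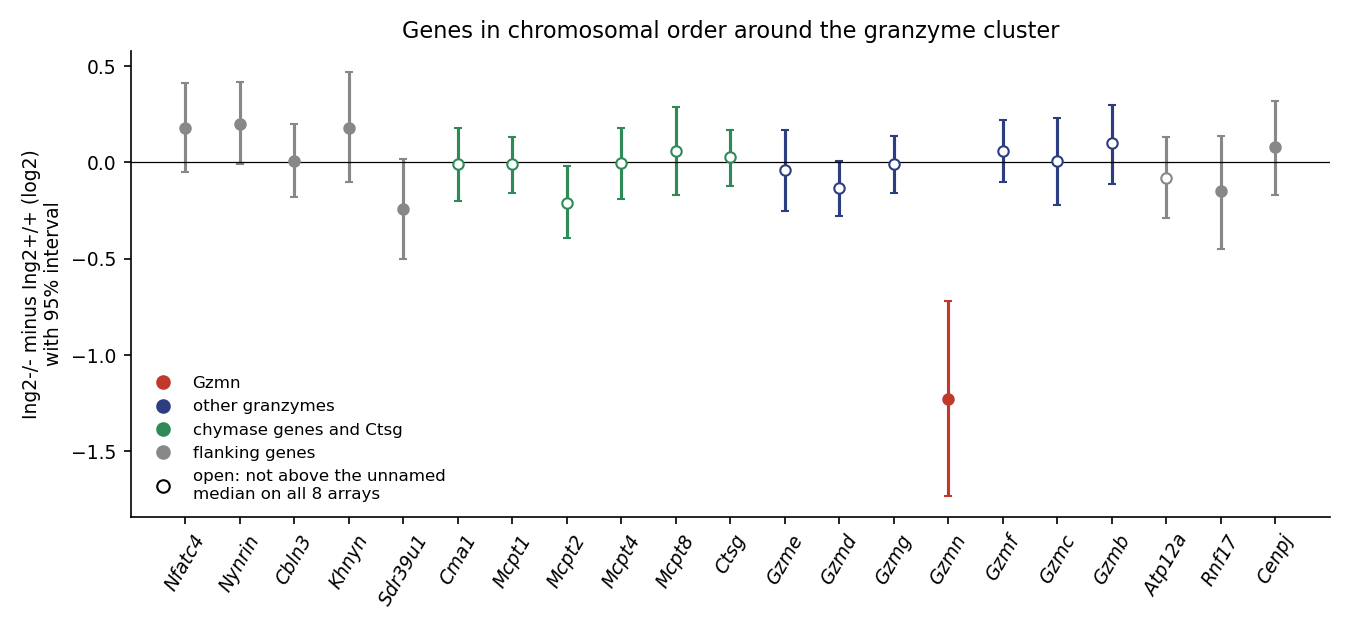
Differences between the genotypes (vertical axis, Ing2-/- minus Ing2+/+, log2, bars are 95% intervals) for 21 genes in chromosomal order (horizontal axis, not to scale) around the granzyme cluster, with open points for genes not above the unnamed median on all 8 arrays. Gzmn at -1.23 is the only gene whose interval lies wholly below -0.50, but at the level of the open points a decrease would be hard to see.

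Genes that deliver, restrain or receive granzymes were counted from lists. Of the granule delivery and activation genes (14 listed, 13 measured), 0 were called, while 2 were higher and 1 lower at an unadjusted p under 0.05 by limma. Of all genes, 16.5% were higher and 13.5% lower at that unadjusted p. Rab27a, the GTPase that docks lytic granules, had the smallest p, with means of 7.24 and 6.93, a difference of -0.31 and an adjusted p of 0.0569. Without Ing2-/- replicate 3 it was called (-0.27, adjusted p = 0.0323 by limma). In that setting the share of all genes called lower also went from 3.01% to 7.76%. Lyst, the gene of Chediak-Higashi syndrome, had a difference of 0.21 (adjusted p = 0.107 by limma). Perforin, Prf1, was at 6.23 and 6.26, so the partner of granzymes in killing showed a difference of only 0.03.

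Of the serpin inhibitors of granzymes (10 listed, 8 measured), 1 was called higher, against 1.97% of all genes. Serpina3n, a secreted serpin that inhibits granzyme B, rose from 6.54 to 8.89, a difference of 2.36 (SE 0.398, adjusted p = 0.0210 by limma), and it was put in the list with that result known. Serpinb9, the intracellular inhibitor of granzyme B, was at 5.17 and 5.09. Of the granzyme substrates (13 listed, 11 measured), 1 was called higher, against 1.97% of all genes. At an unadjusted p under 0.05 by limma 3 were higher, where 16.5% of all genes were. Apex1, a DNA repair endonuclease cut by granzyme A, was at 8.85 in Ing2+/+ and 9.26 in Ing2-/- testes, a difference of 0.41 (SE 0.0633, adjusted p = 0.0166 by limma) that reads -0.11 when the arrays are scaled to equal Sertoli cell markers. That scaling moves all genes alike, with the median of all probe sets at -0.49, and Apex1 is 0.38 above the median of all probe sets with or without it. Of the neutrophil serine proteases (5 listed, 4 measured), 0 were called and 0 had an unadjusted p under 0.05 by limma, with values of -0.10 for Prtn3 and 0.06 for Elane.

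Markers of killer cells gave no call. Of the T and NK cell markers (21 listed, 20 measured), 0 were called. At an unadjusted p under 0.05 by limma, 0 were higher and 2 lower, against 16.5% and 13.5% of all genes. The median difference of these markers was -0.02, and their mean level was 5.19 to 5.27 in Ing2+/+ and 5.18 to 5.28 in Ing2-/- testes. The group mean was above the unnamed median for 8 of the markers in Ing2+/+ and 7 in Ing2-/- testes. Among these were Cd3e at 6.40 and 6.33 and Cd8a at 6.06 and 6.05. Other T cell markers were low, with Cd3d, at 5.11 and 5.23, above that median on 1 array. Cd3g, at 4.44 in both groups, and Cd4, at 5.25 and 5.34, were below the unnamed median on every array. The NK receptor genes Ncr1, Klrb1c, Klrd1 and Klrk1 were below it on every array. Cd8b1 and Eomes had the smallest p, with differences of -0.28 (adjusted p = 0.127 by limma) and -0.17 (adjusted p = 0.162 by limma).

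Of the mast cell markers (8 listed, 8 measured), 1 was called higher, against 1.97% of all genes. It was Hdc, the histidine decarboxylase gene, at 8.14 and 8.63, a difference of 0.49 (SE 0.0832, adjusted p = 0.0211 by limma). It reads -0.03 under the Sertoli scaling, which shifts all genes alike, and is 0.46 above the median of all probe sets with or without it. The other mast cell markers, among them Cpa3, Tpsb2 and Ms4a2, were below the unnamed median in both groups. Of the macrophage markers (12 listed, 12 measured), 0 were called, with a median difference of 0.31. At an unadjusted p under 0.05 by limma 5 of them were higher, where 16.5% of all genes were. The smallest p among these markers belonged to Mrc1 and Cd68, with differences of 0.40 (adjusted p = 0.0612 by limma) and 0.38 (adjusted p = 0.0726 by limma). Without Ing2-/- replicate 3, 4 macrophage markers were called higher, while the share of all genes called higher went from 1.97% to 8.72%.

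Markers of the cell types in which Gzmn is transcribed had differences mostly below 0. Of the pachytene spermatocyte markers (20 listed, 20 measured), 2 were called lower and 0 higher, against 3.01% and 1.97% of all genes. Asb4, 1 of these 2, had been listed by the study as a reduced pachytene gene from these same arrays. Its call is therefore not independent evidence about the pachytene markers. A difference below 0 was found for 18 of them and for 45.7% of all genes, and their median was -0.22 against 0.02 over all genes. Asb4, an ankyrin repeat adaptor of ubiquitin ligases, was at 8.24, 8.27 and 8.23 in Ing2+/+ and at 7.03, 6.77, 6.12, 6.43 and 6.77 in Ing2-/- testes, a difference of -1.62 (SE 0.182, adjusted p = 0.00679 by limma). Hspa2, the heat shock protein of meiotic spermatocytes, had a difference of -0.40 (adjusted p = 0.0476 by limma), which reads 0.05 with arrays scaled to equal spermatid markers. That scaling shifts all genes alike, with the median of all probe sets at 0.47, and Hspa2 lies at -0.43 relative to it with or without the scaling. Of the spermatid markers (18 listed, 18 measured), 1 was called lower, Catsper1, a sperm calcium channel, with -0.74 (adjusted p = 0.0498 by limma), and all 18 had a difference below 0 (median -0.31).

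Markers of the somatic cells of the testis had differences above 0. Of the Sertoli cell markers (17 listed, 16 measured), 1 was called higher, against 1.97% of all genes, namely Defb36 at 0.69 (adjusted p = 0.0240 by limma). At an unadjusted p under 0.05 by limma 13 were higher, where 16.5% of all genes were, with a median of 0.46. Of the Leydig cell markers (8 listed, 7 measured), 5 were called higher, against 1.97% of all genes. The steroid synthesis genes Hsd17b3, Cyp11a1 and Hsd3b1 led them with 0.94, 0.83 and 0.80. The median of the Leydig markers was 0.60. These directions are relative to the whole array: scaled to equal spermatid markers, the medians of pachytene and spermatid markers were 0.23 and 0.13, and scaled to equal Sertoli markers, that of the Sertoli markers was -0.05 and that of the macrophage markers -0.21. Relative to the median of all probe sets these lists lie at -0.25, -0.34, 0.43 and 0.28, values that a shift of whole arrays cannot change. Without Ing2-/- replicate 3, the calls were 4 of the pachytene and 5 of the spermatid markers lower, and 10 of the Sertoli and 6 of the Leydig markers higher. Calls over all genes rose as well in that setting, to 7.76% lower and 8.72% higher.

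**Figure D4:**
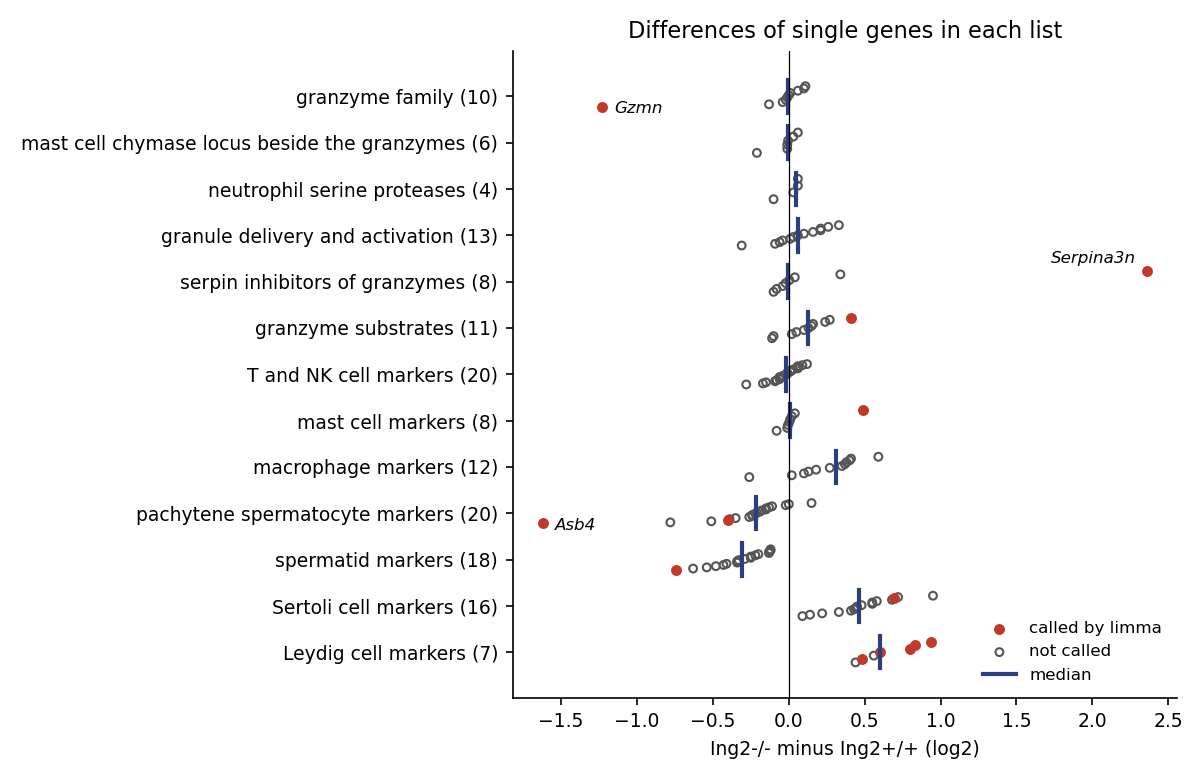
Differences of single genes (horizontal axis, Ing2-/- minus Ing2+/+, log2) in each gene list (rows, with the number measured), where filled red points were called by limma, open points were not and blue bars are medians. The medians are -0.22 and -0.31 for pachytene spermatocyte and spermatid markers, 0.46 and 0.60 for Sertoli and Leydig cell markers, and near 0 for T and NK cell markers.

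The same array that was lowest for Gzmn was the most shifted in these markers. On Ing2-/- replicate 3 the mean of the pachytene markers was -0.62 and of the spermatid markers -0.73 relative to Ing2+/+, against -0.22 and -0.23 on the other Ing2-/- arrays. The Leydig markers were at 1.11 on it against 0.56 on the others. In bulk RNA, fewer cells of a type and less of a transcript per cell cannot be told apart. With arrays scaled to an equal median level of the pachytene markers, the difference of Gzmn was -1.10 (adjusted p = 0.00783 by limma). With an equal median level of the spermatid markers it was -0.78 (adjusted p = 0.0561 by limma). The median differences of the pachytene and spermatid markers under their own scaling were -0.08 and 0.13. Both scalings were chosen after seeing the data, and they moved the median of all probe sets to 0.16 and 0.47. Relative to that median Gzmn lies at -1.26 under both and without scaling, since a shift of whole arrays cannot change it. The scalings are therefore no test of the cell mix, and its part in the Gzmn difference was not tested.

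The genes whose levels were most like Gzmn were found among 15234 genes with a group mean above the unnamed median. By Pearson's r over the 8 arrays they were Cln6 (0.998), Sdk2 (0.995), Zkscan17 (0.995), Nell2 (0.995) and Zfp474 (0.993). Cln6 encodes a membrane protein of the endoplasmic reticulum that is mutated in a neuronal ceroid lipofuscinosis, Sdk2 a cell adhesion protein, and Zkscan17 and Zfp474 zinc finger proteins. Nell2 encodes a secreted protein that male germ cells send to the epididymis. The r values follow the genotype in large part, since the groups form separate clusters, and the arrays share their cell mix, so they carry no test. A value of r above 0.9 was found for 1359 genes (8.92%) and above 0.99 for 12.

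Cln6 was at 9.12, 9.12 and 9.23 in Ing2+/+ and at 8.47, 8.50, 7.65, 8.26 and 8.13 in Ing2-/- testes, a difference of -0.96 (adjusted p = 0.0269 by limma). Replicate 3 was the lowest Ing2-/- array for Cln6 as it was for Gzmn. The differences of Zfp474, Zkscan17, Nell2 and Sdk2 were -1.03, -0.85, -0.71 and -0.52, all called. Cln6 and these genes were chosen for their likeness to Gzmn on the same arrays. Their direction, calls and low replicate 3 largely come with that choice and add no evidence about Gzmn. Asb4, the most reduced pachytene marker, had an r of 0.967 with Gzmn.

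The calls outside the family also changed when single arrays were left out. Of the 15 called genes named here from the lists and the likeness to Gzmn, 0 remained called without Ing2+/+ replicate 1, 0 without replicate 2 and 1, Asb4, without replicate 3. Without Ing2-/- replicate 5 the calls of 2, Apex1 and Asb4, remained. Without Ing2-/- replicate 1 or 2, which left Gzmn called, 10 and 11 remained, and without replicate 3 or 4 all 15 did. The sizes moved less than the calls, as for Serpina3n with 2.30, 2.37 and 2.40 without each Ing2+/+ array in turn. Without each Ing2-/- array in turn it was from 2.06 (without replicate 3) to 2.54 (without replicate 4).

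**Figure D5:**
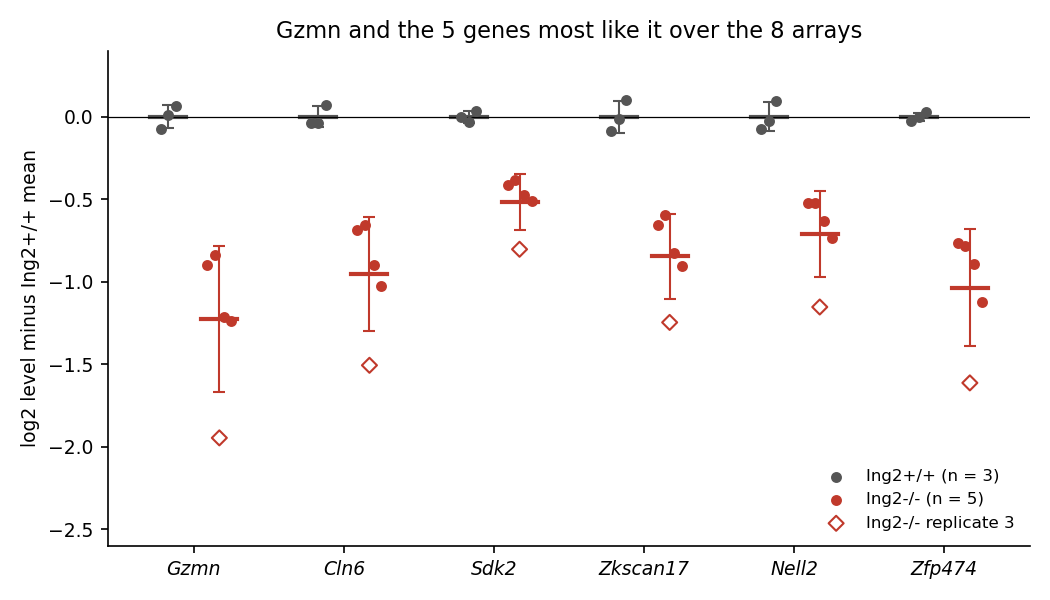
Levels of Gzmn and the 5 genes most like it (vertical axis, log2 minus the Ing2+/+ mean of each gene) in each Ing2+/+ (grey, n = 3) and Ing2-/- testis (red, n = 5, replicate 3 as an open diamond), with bars for the mean and SD. In all of them the genotypes do not overlap and replicate 3 is the lowest Ing2-/- testis. The genes were chosen for their likeness to Gzmn on these arrays, so these traits largely come with the choice.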

How the data were processed

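RNA of whole testes (3 Ing2+/+ mice, 5 Ing2-/- mice) was measured on Affymetrix Mouse Gene 1.0 ST arrays. Per the submitters' processing notes and the methods, the deposited values are log2 levels that the authors computed by RMA. They ran it in Affymetrix Expression Console, version not given in the sources used here, with NetAffx release 28 as annotation. RMA equalizes the distributions of the arrays, so a level is relative to all transcripts of that testis and a change in total RNA is not seen. The log2 values were used as they stand, with 0 value columns left out. Of 35557 probe sets, 21789 had 1 symbol (21698 updated by gene identifier with the GRCm38.p6 gene table), 1621 had several and 12147 had none. The brightest probe set with 1 symbol stands for a gene.

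Linear models (lmFit, then eBayes, two-sided, 2.85 prior degrees of freedom) were fitted with limma 3.58.1 under R 4.3.3, and single values also by an exact two-sided permutation test. The fits were tested on simulated data. Promoters from RefSeq were aligned with Biopython 1.88 (match 2, mismatch -1, gap opening -4, extension -0.5), which held entries for 10 of 10 members, 11 in all. Tables were made with pandas 2.3.3 and figures with matplotlib 3.10.9 in Python 3.11.15.

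The members and lists were chosen with earlier results of these data known. Named were all members and Ing2, up to 3 called genes of each list by size of change or else the 2 with the smallest p, and the 5 genes most like Gzmn. Genes outside this rule, namely Prf1, Serpinb9, Rnf17, Sdr39u1, Nynrin, Cd3e, Cd8a and the markers given as low, were chosen after their values were seen. Listed genes without a probe set of their own were not analysed here. Labels and files gave no batch. The replicates are separate mice. With 8 arrays the precision is limited, and levels of named genes were not compared with each other, since probe sets differ in brightness. They were set only against the unnamed probe sets of the same array, as a rough mark of low signal. The alternatives were a block for the replicate number, leaving out each array in turn, probe sets above the median level, probe sets with 1 symbol, cyclic loess, equal Sertoli marker medians, the methods' random variance model, an intensity trend with robust estimation and array weights. Equal pachytene and equal spermatid marker medians were added after seeing the data.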

Additional observations from a re-analysis of the deposited data

How the results depend on the processing

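Gzmn was lower in Ing2-/- testes under all 18 alternatives, with differences of -1.74 to -0.78 and adjusted p of 0.00198 to 0.123, and passed the threshold in 12 of them. With each array left out in turn its difference was -1.32 to -1.05, the count of granzyme probe sets called was 0 to 1, and the count of all probe sets called went from 49 (without Ing2+/+ replicate 2) to 5006 (without Ing2-/- replicate 3), against 1713 with all arrays. The count was 67 without Ing2+/+ replicate 1 and 445 without Ing2+/+ replicate 3, and it was 420 without Ing2-/- replicate 5. With the replicate block, Gzmn stayed at -1.23 with an adjusted p of 0.123, and 0 granzyme probe sets and 0 probe sets in all were called. The numbers share no origin in the labels, and the deviations of equal numbers correlated at -0.0574, 0.184 and 0.00577, so this fit was not used as a pairing. Equal Sertoli marker medians moved the median of all probe sets to -0.49. That scaling called 16696 probe sets, 0.210% of them higher against 37.1% as reported, and 6 granzymes, namely Gzmn and Gzmc, Gzmd, Gzme, Gzmg and Gzmk. Relative to that median the other 9 granzymes lay at -0.16 to 0.08 and Gzmn at -1.26. Under it Apex1 reads -0.11 and Hdc -0.03, which is that shift of all genes alike. Equal spermatid marker medians gave 107 probe sets (57.9% higher), 0 granzymes, -0.78 for Gzmn (adjusted p = 0.0561 by limma) and, with the median of all probe sets at 0.47, 0.05 for Hspa2. Equal pachytene marker medians gave 793 probe sets. Array weights gave 6565 (55.3% higher). The methods' random variance model gave 944 at an unadjusted p under 0.001. Of the called probe sets, 47.4% were higher with the filter on level and 24.2% with cyclic loess. That filter, which keeps probe sets above the median, held 1 granzyme, Gzmn, so it tested none of the others. The cause of the changes in calls was not tested.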
